A study of Homo sapiens with 6 samples.

Results

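The 10 genes described here are core components and target genes of the YAP/TEAD pathway: YAP1, WWTR1, TEAD1, PTPN14, LATS2, AMOTL2, AJUBA, CTGF, CYR61 and ANKRD1. They were chosen by symbol from the 57133 symbols of the count table. The rule names symbols and no measured value, but it was made with earlier results of these data known. All 10 were among the 14461 genes with enough counts to test. The table lists CTGF (now CCN2) and CYR61 (now CCN1) under these older symbols. RNA had been sequenced from T98G, an established glioblastoma (GBM) line, in which CBX8 was knocked out with a CRISPR guide (sgCBX8) delivered on a plasmid and puromycin selection. CBX8 is a chromobox subunit of Polycomb repressive complex 1. The knockout cells carried either an empty tet-inducible lentiviral vector (CBX8 KO, 3 libraries) or the same vector with WT CBX8 bearing a V5 tag (WT CBX8 re-expression, 3 libraries), and both also carried the rtTA transactivator and received doxycycline at 1 µg/ml for 72 h. The labels give the genotype of the re-expression libraries as wild type, whereas the titles and methods describe CBX8 returned to the knockout line, and no library of the unedited line was analysed here. The 2 vectors went into separate transductions and drug selections, no clone is named, and the sources do not say whether libraries of a group came from separate cultures. A difference between these 2 transduced lines therefore cannot be told apart from an effect of CBX8, and p-values measure spread between libraries only.

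The Hippo pathway restrains YAP1 and its paralog WWTR1 (TAZ), transcriptional coactivators without a DNA-binding domain of their own. The kinases LATS1 and LATS2 phosphorylate both proteins, which holds them in the cytoplasm or leads to their degradation. Unphosphorylated YAP1 and TAZ enter the nucleus, bind TEAD factors on DNA and activate genes of matrix, adhesion and cytoskeleton, among them CTGF, CYR61 and ANKRD1. Several genes whose products restrain YAP, including LATS2, AMOTL2 and PTPN14, are also known transcriptional targets of YAP. Much of this control acts on the proteins, which RNA counts do not measure.

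The promoters of CTGF, ANKRD1 and WWTR1 are printed because CTGF and ANKRD1 had the largest differences among the 10 genes and WWTR1 was the gene that fell. Each runs from 250 bases before the RefSeq transcription start to the base before it (GRCh38.p14, which is the assembly of hg38), 5′ to 3′ on the strand of the gene. Capitals mark CATTCC or its reverse complement GGAATG, the core of the TEAD binding motif, searched on both strands.
CTGF, chr6:131951373-131951622, minus strand: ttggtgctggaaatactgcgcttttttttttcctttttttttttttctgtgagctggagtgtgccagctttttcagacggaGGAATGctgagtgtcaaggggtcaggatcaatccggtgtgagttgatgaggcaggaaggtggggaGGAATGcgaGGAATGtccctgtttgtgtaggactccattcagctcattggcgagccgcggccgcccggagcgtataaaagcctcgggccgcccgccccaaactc
ANKRD1, chr10:90921088-90921337, minus strand: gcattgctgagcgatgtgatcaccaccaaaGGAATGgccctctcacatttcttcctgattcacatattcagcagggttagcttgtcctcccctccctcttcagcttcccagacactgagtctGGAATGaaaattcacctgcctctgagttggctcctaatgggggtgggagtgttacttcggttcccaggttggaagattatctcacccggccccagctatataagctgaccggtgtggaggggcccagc
WWTR1, chr3:149658026-149658275, minus strand: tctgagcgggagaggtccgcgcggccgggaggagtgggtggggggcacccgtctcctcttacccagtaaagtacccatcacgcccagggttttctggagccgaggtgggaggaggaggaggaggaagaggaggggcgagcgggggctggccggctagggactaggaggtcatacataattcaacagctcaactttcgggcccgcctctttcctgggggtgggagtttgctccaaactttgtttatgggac
The CTGF promoter holds 3 matches, which begin 169, 104 and 95 bases before the start. The ANKRD1 promoter holds 2, at 220 and 128 bases before the start. Of 35116 RefSeq promoters of this length, 11.9% hold at least 1 match, 0.94% at least 2 and 0.0826% at least 3. The WWTR1 promoter printed above and a second WWTR1 promoter in the table hold 0, as does that of LATS2. YAP1 has 1 match (162 bases before the start), as do PTPN14 (200), 1 of 2 AMOTL2 promoters (69) and 1 of 2 AJUBA promoters (59). ANKRD1 also has 1 match to TGANTCA (N is any base), a pattern looser than the AP-1 consensus, which has C or G at its centre. Of all promoters, 6.57% hold a match to this loose pattern. The match in ANKRD1 reads tgattca and so is not the consensus itself. A match is a description of letters and does not show that a TEAD protein binds there.

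The libraries were alike in depth, with 7950190 to 8659796 counts in total. Genes with at least 1 count numbered 21475 to 21674 in CBX8 KO and 22208 to 22428 upon re-expression, and the part of this difference in the results was not tested. The knocked-out gene followed the labels, since CBX8 counts were 96, 104 and 83 with the empty vector against 30372, 31408 and 27791 with WT CBX8. VIM, CD44, FN1 and ANXA1, mesenchymal and glioma line genes, were abundant in all 6 libraries. CHI3L1, from the same list of line markers, was scarce, with at most 10 counts in any library. The neural markers SOX2 and S100B had 0 counts, NES had at most 4 and GFAP 13 to 30, so defining glial and neural stem markers were absent or scarce. In bulk RNA such as this, fewer cells that express a gene and less RNA per cell cannot be told apart. A list of 12 markers of blood, epithelial, endothelial and liver cells summed to 21 to 30 counts in CBX8 KO and 28 to 39 upon re-expression, with KRT5 and ALB at 0 in every library.

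Upon WT CBX8 re-expression, 5 of the 10 genes rose (YAP1, PTPN14, CTGF, CYR61 and ANKRD1), 1 fell (WWTR1) and 4 did not pass the threshold (TEAD1, LATS2, AMOTL2 and AJUBA). The threshold was an adjusted p of 0.05 from edgeR's quasi-likelihood test, the test used throughout for log2 fold changes, with Benjamini-Hochberg adjustment over all genes tested. By the same rule 6.23% of the 14461 tested genes were higher and 6.63% lower. The median log2 fold change of the 10 genes was 0.18, beside 0.005 over all tested genes. Since the 10 were chosen with earlier results of these data known, these comparisons are a description and were not tested. In CPM (counts per 1000000 of the TMM-scaled library size), the 3 re-expression libraries lay wholly above the 3 CBX8 KO libraries for 8 of the 10 genes and wholly below them for 1, WWTR1. Over all tested genes, 14.4% lay wholly above and 14.4% wholly below. Most of the differences were small: 8 of the 10 genes had log2 fold changes between -0.23 and 0.42.

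**Figure D1:**
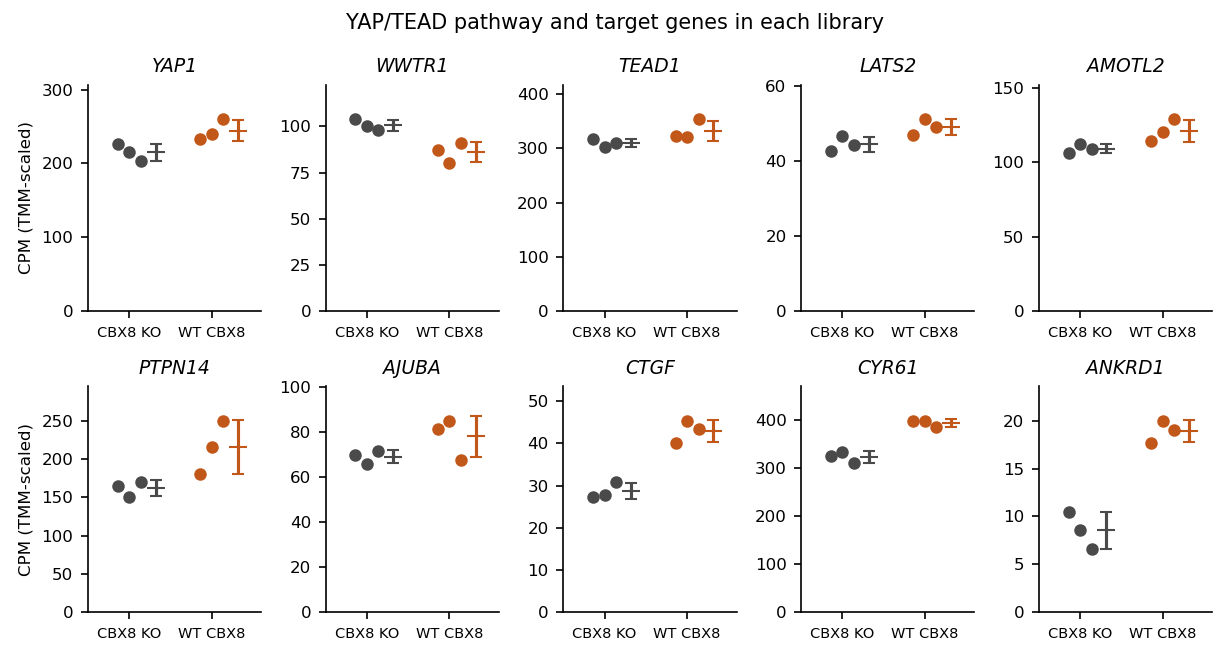
Level of each of the 10 genes in CPM (y axis, from 0 in each panel) in the 3 CBX8 KO libraries (grey points) and the 3 WT CBX8 re-expression libraries (orange points), with the mean ± SD beside them (n = 3). The groups are apart for 9 genes and overlap for AJUBA, and ANKRD1 shows the widest gap for its level, from 8.56 to 18.9 CPM on average.

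The paralogous coactivators moved in opposite directions. YAP1 (chr11:102110447-102233424, plus strand) had 1793, 1810 and 1583 counts in CBX8 KO and 1984, 2100 and 2182 upon re-expression, which is 215 ± 11.9 and 244 ± 13.8 CPM (SD, n = 3 each). All 3 re-expression libraries were above the highest CBX8 KO library, and the log2 fold change was 0.19 (SE, the standard error, 0.053, edgeR adjusted p = 0.019). This call was near the limit: it was lost when CBX8 KO replicate 2 (edgeR adjusted p = 0.07), CBX8 KO replicate 3 (0.10), WT CBX8 re-expression replicate 2 (0.052) or WT CBX8 re-expression replicate 3 (0.13) was left out, although the value kept its sign. WWTR1, which encodes TAZ (chr3:149517235-149736714, minus strand), had 826, 844 and 767 counts in CBX8 KO and 742, 702 and 764 upon re-expression. Its CPM fell from 101 ± 3.09 to 86.1 ± 5.46 (SD, n = 3 each), with every re-expression library below every CBX8 KO library, a log2 fold change of -0.23 (SE 0.058, edgeR adjusted p = 0.0083). Without WT CBX8 re-expression replicate 2 it was -0.18 (edgeR adjusted p = 0.11).

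Because the coactivators changed in opposite directions, the number of YAP1 reads per WWTR1 read was computed in each library. It was 2.17, 2.14 and 2.06 in CBX8 KO and 2.67, 2.99 and 2.86 upon re-expression, or 2.13 ± 0.0557 and 2.84 ± 0.159 (SD, n = 3 each), with no overlap. This separation follows from that of the genes themselves, and the ratio was chosen after their values were seen, so it is given as a description. An exact permutation test gave p = 0.1, the smallest it can give with 3 libraries per group, so it could not decide. Antisense non-coding genes share 9.95% of YAP1 exon bases and 9.05% of WWTR1 exon bases (WWTR1-AS1), and the strand setting of the counting is not given in the sources used here, so their reads cannot be told apart from those of the coactivators. A stretch of chromosome 6 aligned to 70.2% of the YAP1 transcript, so some YAP1 reads may have had more than 1 place in hg38.

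TEAD1, the DNA-binding partner of YAP and TAZ (chr11:12674421-12944737, plus strand), had 2514, 2554 and 2417 counts in CBX8 KO and 2742, 2812 and 2970 upon re-expression. The means were 310 ± 6.95 and 332 ± 18.4 CPM (SD, n = 3 each). The re-expression libraries were the 3 higher ones, but the log2 fold change of 0.10 (95% interval -0.003 to 0.203) did not pass the threshold (edgeR adjusted p = 0.21), and it was 0.05 without WT CBX8 re-expression replicate 3. The other TEAD genes did not pass it either. TEAD3 had a log2 fold change of 0.19 (-0.022 to 0.395), TEAD2 of -0.12 (-0.268 to 0.035) and TEAD4 of -0.08 (-0.274 to 0.111), so the estimates of the 4 family members lay on both sides of 0.

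Of the 3 genes known for holding YAP back, PTPN14 rose and LATS2 and AMOTL2 did not pass the threshold. PTPN14 is a cytoplasmic tyrosine phosphatase that binds YAP and retains it in the cytoplasm (chr1:214348700-214552449, minus strand). It had 1306, 1264 and 1326 counts in CBX8 KO and 1535, 1890 and 2098 upon re-expression, or 162 ± 10.2 and 215 ± 34.7 CPM (SD, n = 3 each). All re-expression libraries were above the CBX8 KO libraries but differed among themselves more than those did. The log2 fold change was 0.42 (SE 0.075, edgeR adjusted p = 0.00035), and DESeq2 gave 0.41 with an adjusted p of 0.055. The processed pseudogene KRT18P12 lies on the opposite strand within PTPN14 and shares 6.47% of its exon bases. KRT18P12 had 1, 2 and 0 counts in CBX8 KO and 26, 25 and 35 upon re-expression. How reads of the shared bases were divided between the genes is not given in the sources used here, and their part in the PTPN14 difference was not tested. Its close relative PTPN21, with 76 to 89 counts in CBX8 KO and 84 to 103 upon re-expression, differed by 0.07 on the log2 scale (95% interval -0.208 to 0.35).

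LATS2, a kinase that phosphorylates YAP and TAZ (chr13:20973036-21061586, minus strand), had 338, 393 and 346 counts in CBX8 KO and 399, 449 and 414 upon re-expression, or 44.5 ± 2.03 and 49.2 ± 2.2 CPM (SD, n = 3 each). The CPM ranges met closely without overlap, and the log2 fold change was 0.14 (95% interval -0.008 to 0.291, edgeR adjusted p = 0.23). Its paralog LATS1 had 351 to 393 counts in CBX8 KO and 325 to 404 upon re-expression, overlapping, and its log2 fold change was -0.11 (-0.29 to 0.072). AMOTL2, an angiomotin that binds YAP and tethers it to junctions and actin (chr3:134355347-134375479, minus strand), had 840, 945 and 849 counts in CBX8 KO and 966, 1048 and 1080 upon re-expression. In CPM it was 109 ± 3.14 and 121 ± 7.56 (SD, n = 3 each), with a log2 fold change of 0.15 (0.031 to 0.261, edgeR adjusted p = 0.091). It passed the threshold without WT CBX8 re-expression replicate 1 (edgeR adjusted p = 0.048), whereas the log2 fold change was 0.095 (0.36) without WT CBX8 re-expression replicate 3 and 0.08 (0.32) after correcting for GC content and transcript length.

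The other angiomotins were both estimated higher. AMOTL1 rose, from 26.9 ± 1.15 to 35.7 ± 3.21 CPM (SD, n = 3 each), with a log2 fold change of 0.41 (SE 0.092, edgeR adjusted p = 0.0032). AMOT had a log2 fold change of 0.19 (SE 0.088) that did not pass (edgeR adjusted p = 0.17), and its groups overlapped.

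AJUBA encodes a LIM-domain scaffold that binds LATS kinases and limits their activity (chr14:22971177-22982551, minus strand). Its counts were 552, 554 and 560 in CBX8 KO and 692, 744 and 569 upon re-expression, or 69.1 ± 2.97 and 78.0 ± 9.09 CPM (SD, n = 3 each). The first and second re-expression libraries were above CBX8 KO and the third lay within it, so AJUBA was the gene of the 10 whose groups overlapped. The log2 fold change was 0.18 (95% interval 0.032 to 0.324, edgeR adjusted p = 0.10). It was 0.27 (edgeR adjusted p = 0.0077) without WT CBX8 re-expression replicate 3, but 0.11 (0.46) when WT CBX8 re-expression replicate 2 was left out. The related scaffolds LIMD1 (log2 fold change 0.24, edgeR adjusted p = 0.036) and WTIP (0.33, 0.038) rose by small margins. LIMD1 did not pass without CBX8 KO replicate 1 or 2 or WT CBX8 re-expression replicate 2 or 3 (edgeR adjusted p of 0.067, 0.21, 0.11 and 0.17). WTIP did not pass without CBX8 KO replicate 1 or 2 or WT CBX8 re-expression replicate 1 or 2 (0.13, 0.099, 0.21 and 0.062). Neither passed with DESeq2 (adjusted p of 0.19 for LIMD1 and 0.21 for WTIP) or, in edgeR, after the same GC and length correction (0.08 and 0.19).

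**Figure D2:**
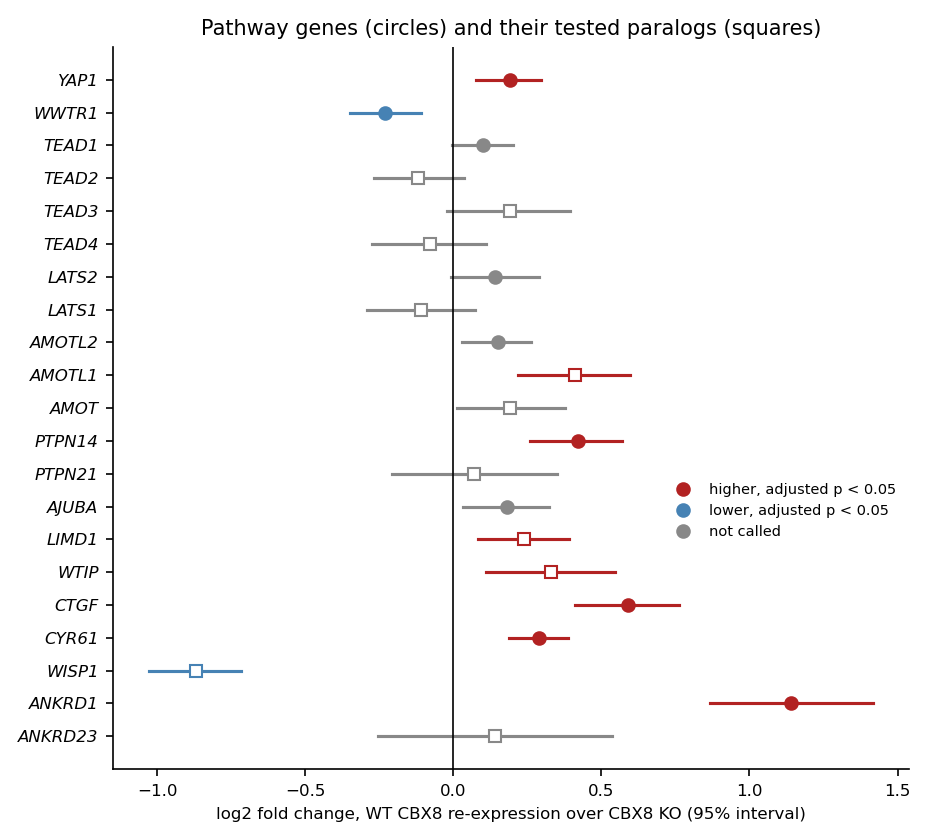
Log2 fold change, WT CBX8 re-expression over CBX8 KO (x axis), with its 95% interval from the edgeR fit, for the 10 genes (circles) and their 11 tested paralogs (squares), ordered by family. Red marks higher and blue lower at an adjusted p under 0.05. YAP1 and WWTR1 lie on opposite sides of 0, as do CTGF with CYR61 and WISP1.

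The 3 classical YAP/TEAD targets among the 10 genes rose. CTGF, a secreted matricellular protein (chr6:131948176-131951372, minus strand), had 216, 234 and 241 counts in CBX8 KO and 342, 397 and 364 upon re-expression. In CPM, the gap between the groups was wider than the spread within either of them. In CPM it was 28.6 ± 1.93 and 43.0 ± 2.6 (SD, n = 3 each), a 1.5-fold difference and a log2 fold change of 0.59 (SE 0.086, edgeR adjusted p = 2.2e-05). CYR61, a matricellular relative of CTGF that binds integrins (chr1:85580761-85584589, plus strand), had 2579, 2813 and 2419 counts in CBX8 KO and 3386, 3495 and 3236 upon re-expression. Its means of 323 ± 12.5 and 394 ± 7.75 CPM (SD, n = 3 each) were well apart for their spread, with a log2 fold change of 0.29 (SE 0.048, edgeR adjusted p = 0.00013).

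ANKRD1, an ankyrin repeat protein of muscle and stressed cells that is widely used as a readout of YAP activity (chr10:90912096-90921087, minus strand), changed most of the 10. It had 83, 72 and 52 counts in CBX8 KO and 151, 175 and 160 upon re-expression, or 8.56 ± 1.91 and 18.9 ± 1.13 CPM (SD, n = 3 each). The lowest re-expression library, at 17.7 CPM, was above the highest CBX8 KO library, at 10.5 CPM. The 2.21-fold difference, a log2 fold change of 1.14 (SE 0.133, edgeR adjusted p = 6.4e-07), ranked 77 from the top among all 14461 tested genes. Of its ankyrin repeat relatives, ANKRD23 had 42, 45 and 42 counts in CBX8 KO and 63, 41 and 47 upon re-expression, and its log2 fold change was 0.14 (95% interval -0.255 to 0.536), and ANKRD2 had at most 1 count.

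The calls of CTGF, CYR61 and ANKRD1 held in each of the 15 alternative fits, with log2 fold changes of 0.55 to 0.64 for CTGF, 0.26 to 0.34 for CYR61 and 0.99 to 1.31 for ANKRD1. CTGF shares 11.9% of its exon bases with the non-coding gene LINC01013 on the opposite strand, while no annotated exon overlaps CYR61 or ANKRD1. Reads of CTGF per read of YAP1 were 0.134 ± 0.0164 in CBX8 KO and 0.176 ± 0.0116 upon re-expression, and those of ANKRD1 per read of YAP1 were 0.0396 ± 0.00672 and 0.0776 ± 0.00516 (SD, n = 3 each). Neither of these ratios, also chosen after the values were seen, overlapped between groups. The exact permutation test again gave its smallest possible p of 0.1 for each, so it could not decide. The ratio of CYR61 to YAP1 did overlap, at 1.51 ± 0.0607 and 1.62 ± 0.119 (SD, n = 3 each). So did the only other ratio computed, LATS2 to LATS1, at 0.982 ± 0.124 and 1.17 ± 0.128 (SD, n = 3 each).

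The CCN family, to which CTGF and CYR61 belong, did not move as a whole. WISP1 (CCN4), a secreted protein best known as a target of Wnt signalling, fell. It had 446, 511 and 460 counts in CBX8 KO and 287, 270 and 265 upon re-expression, with no overlap, and its log2 fold change was -0.87 (SE 0.075, edgeR adjusted p = 3.9e-09). That size, in the opposite direction, exceeded the rise of CTGF and of CYR61. NOV, WISP2 and WISP3, the remaining CCN genes, had at most 10 counts in any library and were not tested.

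Per kb of canonical transcript, CYR61 had the highest level of the 10 genes in both groups, at 142 ± 5.48 CPM per kb in CBX8 KO and 173 ± 3.4 upon re-expression (SD, n = 3 each). The median level of all tested genes with a known transcript length was 8.74 in CBX8 KO. YAP1 (39.7), TEAD1 (32.9), AMOTL2 (22.4) and WWTR1 (19.5 to 20.7 over libraries) followed in CBX8 KO, each apart from the next in all libraries. AJUBA (16.6), CTGF (12.2), PTPN14 (12.1), LATS2 (8.03) and ANKRD1 (4.78) came below them, and of these neighbours CTGF and PTPN14 overlapped. Upon re-expression WWTR1 moved from rank 5 to rank 7, at 17.1 CPM per kb, where AJUBA (18.7), CTGF (18.4), WWTR1 and PTPN14 (16.1) lay close together. There, AJUBA overlapped CTGF, CTGF overlapped WWTR1 and WWTR1 overlapped PTPN14. ANKRD1 (10.6) passed LATS2 (8.86) and left the lowest rank.

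**Figure D3:**
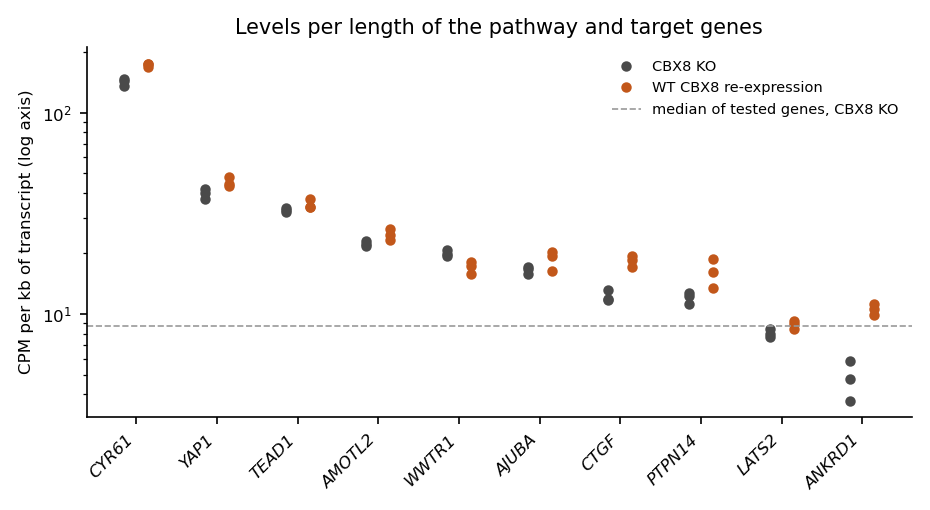
Level of each gene per kb of its canonical transcript, in CPM per kb on a log axis, in the 3 CBX8 KO libraries (grey) and the 3 WT CBX8 re-expression libraries (orange), ordered by the mean in CBX8 KO. The dashed line is the median of tested genes in CBX8 KO (8.74), which LATS2 straddles and ANKRD1 crosses.

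A list of 23 other genes known as YAP/TAZ targets, all tested, held 7 that rose and 2 that fell, beside 6.23% and 6.63% of all tested genes. The median log2 fold change of the list was 0.11. NT5E, the ectonucleotidase CD73, rose most, from 95, 97 and 77 counts to 171, 170 and 193 (log2 fold change 0.90, SE 0.116, edgeR adjusted p = 3.4e-06). EDN1, the vasoconstrictor endothelin 1, rose by 0.57 from few counts (41 to 46 in CBX8 KO, 57 to 80 upon re-expression, edgeR adjusted p = 0.026). The call of EDN1 was lost in DESeq2 (adjusted p = 0.20) and in edgeR when leaving out CBX8 KO replicate 2 (0.13) or WT CBX8 re-expression replicate 2 (0.15) or 3 (0.074). CRIM1, a transmembrane protein that binds BMPs, rose by 0.47, and the secreted glycoprotein FSTL1 by 0.42. The remaining rises, named after their values were seen, were those of the kinase receptor AXL (0.33), DOCK5 (0.35) and tissue factor F3 (0.28), the last of which did not pass without WT CBX8 re-expression replicate 2 (edgeR adjusted p = 0.092).

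The targets that fell were IGFBP3 and FOXF2. IGFBP3, a carrier of insulin-like growth factors, had 8345, 8893 and 7517 counts in CBX8 KO and 6182, 6086 and 6239 upon re-expression, a log2 fold change of -0.51 (SE 0.051, edgeR adjusted p = 5.7e-08). FOXF2, a forkhead transcription factor, fell by 0.30 on the log2 scale (edgeR adjusted p = 0.0072). The fall of FOXF2 did not pass without CBX8 KO replicate 2 (edgeR adjusted p = 0.085) or WT CBX8 re-expression replicate 2 (0.086). The other 14 targets did not pass the threshold.

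Among 47 other Hippo pathway genes, 43 were tested, 11 rose and 0 fell by edgeR, beside 6.23% and 6.63% of all tested genes. The median log2 fold change of the list was 0.07. At an unadjusted edgeR p under 0.05, 14 were higher and 1 lower, but the share of all tested genes at that limit was not computed. DESeq2 called 7 higher and 0 lower, beside 421 and 667 of all 28010 genes with a count. By limma voom 11 were higher and 0 lower, beside 874 and 950 of all 14461 tested genes. The largest rises were those of TNIK, a MAP4K family kinase, and VGLL3, a cofactor that binds TEADs in place of YAP. TNIK had 32, 37 and 29 counts in CBX8 KO and 66, 73 and 66 upon re-expression (log2 fold change 0.98, SE 0.175, edgeR adjusted p = 0.0003). VGLL3 had 60, 67 and 72 counts and then 112, 134 and 164 (0.95, SE 0.145, edgeR adjusted p = 3.5e-05). Both were well separated between groups, from few counts.

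The giant atypical cadherin FAT1 was far more abundant, with 2117, 2035 and 2097 counts in CBX8 KO and 2675, 3252 and 3741 upon re-expression. It rose by 0.54 (SE 0.077, edgeR adjusted p = 1.5e-05), with a wide spread between the re-expression libraries. RASSF1, a scaffold for the MST kinases, rose by 0.44 (edgeR adjusted p = 0.0045, DESeq2 adjusted p = 0.063). AMOTL1, LIMD1 and WTIP are also on this list. The last 4 that rose, named after their values were seen, were MAP4K2 (0.41), FAT4 (0.36), TAOK1 (0.30) and STK4 (0.22), the kinase MST1. FAT4 did not pass without WT CBX8 re-expression replicate 3 (edgeR adjusted p = 0.058), nor did STK4 without that library (0.058) or without CBX8 KO replicate 2 (0.059), and STK4 did not pass with DESeq2 (adjusted p = 0.063). This list holds activators and inhibitors of the pathway, so its counts give no direction for pathway activity.

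**Figure D4:**
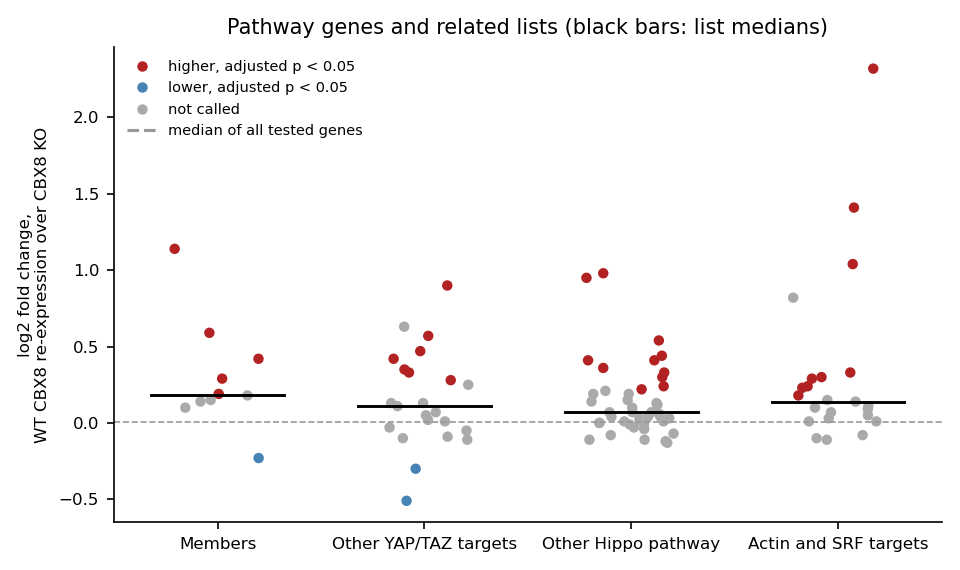
Log2 fold change, WT CBX8 re-expression over CBX8 KO (y axis), of the 10 genes, the 23 other YAP/TAZ targets, the 43 tested other Hippo pathway genes and the 23 tested actin and SRF target genes; each point is 1 gene, red where higher and blue where lower at an edgeR adjusted p under 0.05. Black bars are list medians (0.18, 0.11, 0.07 and 0.14) and the dashed line is the median of all tested genes (0.005).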

How the data were processed

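Poly(A) RNA of 6 libraries was sequenced by the authors as paired-end reads, trimmed with Trimmomatic and aligned to hg38 with HISAT2 (submitters' processing notes). The deposited values are raw counts, 1 per library and gene symbol, made by the authors. The counting program, annotation and strand setting are not given in the sources used here.

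In R 4.3.3, filterByExpr of edgeR 4.0.16 kept 14461 genes, counts were scaled by TMM, and the groups were compared by glmQLFit and glmQLFTest with condition as the only term and an FDR threshold of 0.05. The common biological coefficient of variation of edgeR, a single value over all genes that leaves out counting noise, was 4.7%. Same-group libraries differed beyond sampling noise (chi-square per degree of freedom 2.06 to 3.09), so all were kept. Intervals and depth cover no PCR duplication. The test was also run on simulated negative binomial counts. The planted changes were larger than those of most of the 10 genes, so the simulation does not cover such small changes. Alternatives included DESeq2 1.42.0 and limma 3.58.1 (voom). Gene positions, exon overlaps and lengths came from GENCODE release 44, with lengths for 87.2% of tested genes, and promoters from RefSeq, which held 8 of the 10 genes. No gene of the 10 had a second match over 95% of its transcript in hg38 (minimap2 2.31).

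The 10 genes and all lists were chosen with earlier results of these data known. Named genes are the 10, their paralogs, CBX8, KRT18P12 and, from each of 3 lists (targets, Hippo, actin and SRF), up to 4 highest and 4 lowest log2 fold changes past the threshold.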

Additional observations from a re-analysis of the deposited data

How the results depend on the processing

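Fits with other scalings, filters, tools, a correction for GC content and length (added after seeing the data) or 1 library left out gave the 10 genes 150 values, of which 138 kept direction and side of the threshold, 7 lost the call, 5 gained one and 0 changed sign. For 27 other named genes, 381 of 404 kept both. With library size alone as the scaling, which moved the median of all genes to 0.0602, 8 of the 10 genes were called higher, with TEAD1 (edgeR adjusted p = 0.032), AMOTL2 (0.015) and AJUBA (0.029) added. That scaling also shifted the calls over all genes upward, to 1400 higher and 592 lower in place of 901 and 959. The count of the 10 called lower was 0 to 1 with 1 library left out, and 0 without WT CBX8 re-expression replicate 2. Of other YAP/TAZ targets, 1 to 2 were called lower with 1 library left out. Of other Hippo genes, DESeq2 called 7 higher, and 1 (PPP2R1A, named after its value was seen) was called lower with the GC and length correction or without CBX8 KO replicate 1, a range of 0 to 1 over libraries left out. PTPN21 lay between -0.0499 and 0.138, and ANKRD23 between -0.0595 and 0.284, with 1 library left out, negative without WT CBX8 re-expression replicate 3 and 1, respectively. Replicate numbers did not pair the libraries (correlations of same-numbered deviations -0.14, -0.18 and -0.11). With a replicate block, 4 of the 10 genes were called higher (YAP1 lost, edgeR adjusted p = 0.053) and 1 lower, 7 and 2 of the other targets, and 9 and 0 of the other Hippo genes (LIMD1 and WTIP lost, 0.057 and 0.077). Over all genes, the block gave 739 higher and 766 lower calls in place of 901 and 959, and DESeq2 421 and 667. The causes of these changes were not tested. At this depth KRT18P12, ANKRD23, EDN1, TNIK, VGLL3, ANKRD1 and the smooth muscle genes rest on few counts.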

Other observations

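Genes of actin and targets of SRF (serum response factor), which share many regulatory inputs with YAP targets, were listed as well. Of 26 genes 23 were tested, 9 rose and 0 fell by edgeR, beside 6.23% and 6.63% of all tested genes. The median log2 fold change of the list was 0.14. At an unadjusted edgeR p under 0.05, 11 were higher and 2 lower, but the share of all tested genes at that limit was not computed. DESeq2 called 7 higher and 0 lower, beside 421 and 667 of all 28010 genes with a count. By limma voom 9 were higher and 0 lower, beside 874 and 950 of all 14461 tested genes. The largest differences were in ACTG2, ACTA2 and TAGLN, smooth muscle genes with few counts. CNN1, LMOD1 and MYL9, also on the list, had at most 6 counts in any library and were not tested. CALD1 (log2 fold change -0.10) and the abundant actins ACTB (0.01) and ACTG1 (0.05), named after their values were seen, did not pass the threshold. ACTA2, smooth muscle actin, had 9, 11 and 8 counts in CBX8 KO and 21, 35 and 24 upon re-expression (log2 fold change 1.41, SE 0.316, edgeR adjusted p = 0.0029). TAGLN, an actin-binding protein of smooth muscle, had 24, 21 and 30 and then 46, 58 and 60 counts (1.04, SE 0.213, edgeR adjusted p = 0.0013). ACTG2, a further muscle actin, had 3, 4 and 1 and then 13, 18 and 13 counts, and DESeq2 gave it no adjusted p. TGFB1I1, an adaptor at focal adhesions, rose by 0.33 from 577 to 700 counts in CBX8 KO to 787 to 908 upon re-expression (edgeR adjusted p = 0.00038).

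Of 9727 tested genes with a RefSeq promoter, 6.82% rose and 7.04% fell. Among the 1270 with at least 1 CATTCC or GGAATG in the 250 bases before a start, 9.37% rose and 6.85% fell. Among the 89 with at least 2, 15.7% rose and 6.74% fell. Both of these sets include CTGF and ANKRD1, and the larger also holds YAP1, PTPN14, AMOTL2 and AJUBA. These shares were not tested. Of the 6 genes with at least 3 matches, 1 rose (CTGF) and 1 fell (C1R, log2 fold change -0.41, named after its value was seen).

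Of 16 tested genes within 1000000 bases of WWTR1, 5 fell, beside 6.63% of all tested genes (CP, EIF2A, HPS3, PFN2 and TM4SF1, named after their values were seen) by edgeR, with a median log2 fold change of -0.105. Around TEAD1, 2 of 6 tested neighbours rose and 0 fell, and around PTPN14 1 of 3 rose (KRT18P12) and 0 fell. Around YAP1, 2 of 10 rose and 2 fell. Around LATS2, 0 of 12 rose and 0 fell, around AJUBA 1 of 28 and 0, and around AMOTL2 0 of 7 and 1. Around CTGF, 1 of 7 rose and 1 fell, around CYR61 1 of 9 and 2, and around ANKRD1 1 of 6 and 0. Over all tested genes, 6.23% rose. These shares were not tested against each other.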
